A study of Homo sapiens with 32 samples.

Results

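The EZH2 inhibitor was examined by setting all H3K27me3 libraries made from cells that received it against all that did not. Libraries were chosen by their treatment labels alone: 8 with the inhibitor and 8 without it, which is 16 of the 32 samples of the study. The other 16 samples are IgG libraries, and no file of theirs was used here. The cells were MDA-MB-231, an established human triple-negative breast cancer line, fixed and profiled by ChIPmentation, a form of chromatin immunoprecipitation in which sequencing adapters are inserted by a transposase while the chromatin is still on the beads. Treatment lasted 24 h. The side with the inhibitor held 4 libraries of the EZH2 inhibitor alone (EP7 in the titles, called EPZ here) and 4 of that inhibitor with a p38 MAP kinase inhibitor (combo). The side without it held 4 control libraries and 4 with the p38 inhibitor alone (P38i), so that each side carried the p38 inhibitor in 4 of its 8 libraries. What the controls received, the doses and whether the 4 libraries of a treatment came from separate cultures are not given in the labels, so p-values measure the spread between these libraries, which may be technical.

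EZH2 is the catalytic subunit of Polycomb repressive complex 2, which places methyl groups on lysine 27 of histone H3. The trimethylated form, H3K27me3, lies over broad stretches of silent chromatin, among them developmental regulators and genes of tissues other than the one at hand. Inhibitors of EZH2 compete with its methyl donor, and existing marks are then lost through dilution at cell division and through demethylases.

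The measure was the percent of each gene's window, the annotated span with 2.5 kb on each side, that lay inside islands, the regions of enrichment called by the authors in each library. Of 19974 protein-coding genes, 13584 held no island in any of the 16 libraries. The comparison was made over the 4105 genes whose mean coverage lay between 5 and 95%, while 15518 lay below that range and 351 above it. Read depth is unknown from these files, so values describe what was called and not the amount of the mark. EZH2 and MAPK14, which encodes the p38 alpha kinase, held no island in any library. Of the 13 mesenchymal and luminal marker genes examined, 11 were also at 0 throughout. The remaining pair did not pass the test: the pioneer factor gene FOXA1 was covered by 62.6% on average without the inhibitor and 50.5% with it, and the oestrogen receptor gene ESR1 by 12.1% and 8.32%. On a wider list of 29 luminal and epithelial genes 7 were tested. All 7 lay lower with the inhibitor, as did 78.1% of all tested genes. Of the 7, 1 passed, where 15.6% of all tested genes fell. The gene that passed was ESRP1, a splicing factor of epithelial cells named here after its values were seen. ESRP1 was covered by 76.3% on average without and 52.8% with the inhibitor (fall of 23.5 ± 5.24 points SE, adjusted p = 0.00930). With each library's covered length as a covariate, 1 of the 7 fell. With island lists shortened to one common covered length, as described below, none of the 6 that could be tested fell.

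Genome-wide, the islands of the 8 libraries with the inhibitor covered 546 ± 50.7 Mb (SD, n = 8), between 474 and 615 Mb, against 605 ± 67.1 Mb, between 484 and 674 Mb, without it. The difference of -58.7 Mb was within what the libraries' spread allowed (2-sided exact permutation test, p = 0.0668, 0.202 after Benjamini-Hochberg adjustment over 4 measures). Without control replicate 4 the adjusted p was 0.0435 and the difference -76.0 Mb, and over all alternatives the adjusted p ran from 0.0435 to 0.571. The number of islands, their median width and the length in islands of 50 kb or more did not differ beyond the spread either, with adjusted p-values of 0.428, 0.238 and 0.202.

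Coverage fell at 642 tested genes with the EZH2 inhibitor and rose at 36, which is 15.6% and 0.877% of those tested (limma on 4 treatment means, Benjamini-Hochberg adjusted p below 0.05). The falls ran from 3.67 to 76.9 percentage points with a median of 17.2, and the rises from 5.69 to 38.8 points with a median of 17.5. Over all tested genes the median difference was -4.84 points, and 78.1% of them lay lower with the inhibitor. At 65 genes, or 1.58% of those tested, the 8 libraries of one side did not overlap with the 8 of the other. Of these, 64 were lower with the inhibitor and 1, LRRC38, was higher.

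The counts depend on how far the overall loss of covered length is taken into account. With each library's covered length as a covariate, 260 genes fell and 127 rose (6.33% and 3.09%), and the median over all genes moved to -1.21 points. Of the 642 genes 259 passed this fit, as did 30 of the 36. When each list was shortened to its widest islands up to one common covered length, 3525 genes could be tested, 96 fell and 72 rose (2.72% and 2.04%), and the median was -1.02 points. Differences are read below against the medians of these 2 scalings as well as against 0. Leaving out P38i replicate 3 reduced the genes that fell from 642 to 390, and leaving out control replicate 4 raised them to 893.

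The 2 arms of the design gave the same direction for most of these genes without sharing a library. EPZ minus control called 125 genes lower (3.05%) and 5 higher (0.122%), and combo minus P38i called 76 lower (1.85%) and 3 higher (0.0731%). The 125 genes lowered by EPZ alone had a median difference of -18.9 points in combo minus P38i, where all tested genes had -5.14, and 124 of them lay lower there, as did 76.6% of all tested genes. The 76 genes lowered in combo minus P38i had a median of -15.2 points in EPZ minus control, against -4.42 for all tested genes, and 70 lay lower, as did 73.2% of all tested genes. Both lists shared 22 genes, which is 17.6% of the first and 28.9% of the second. Across the 4105 genes, which are not independent replicates, the 2 differences had a Pearson correlation of 0.510 and a Spearman correlation of 0.516.

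**Figure D1:**
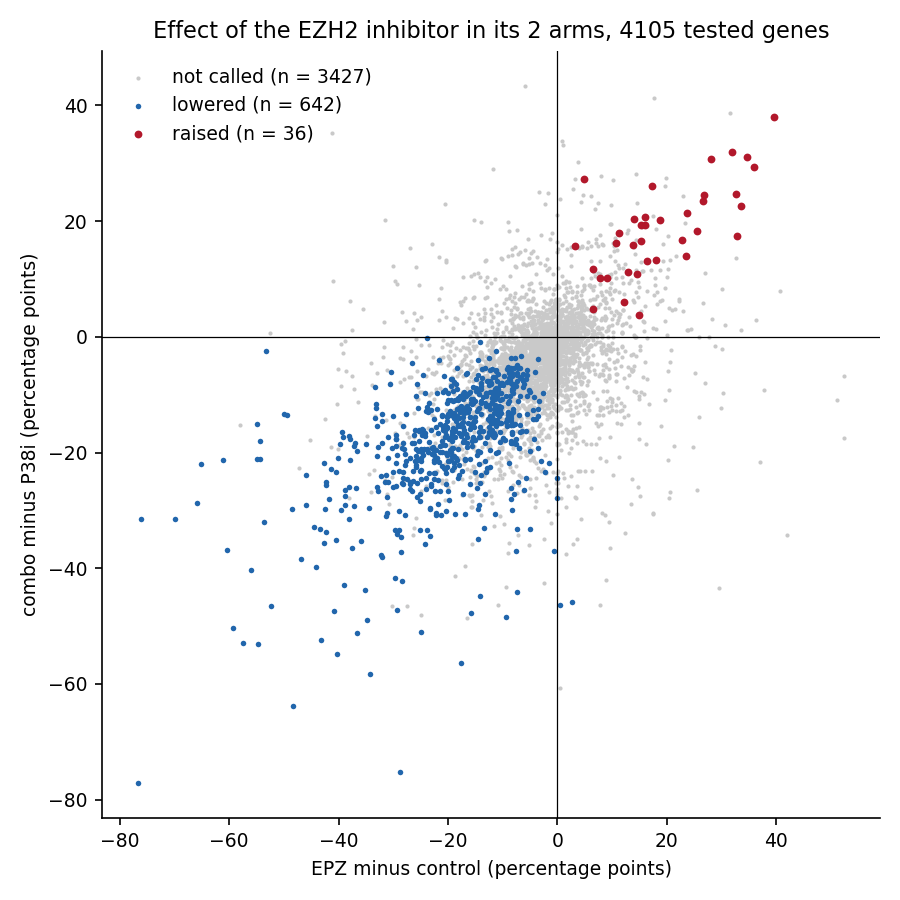
Difference in covered percent of each tested gene for EPZ minus control (x axis) and combo minus P38i (y axis), both in percentage points; each point is 1 gene, coloured by its call over all 16 libraries. The 642 lowered genes lie mostly at the lower left and the 36 raised genes at the upper right.

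A difference between the arms was called at 2 genes, 0.0487% of those tested, with 141 at an unadjusted p below 0.05; limma without its trend and robust options called 1. ZNF853, a zinc finger gene on chromosome 7, was covered by 16.1, 21.9, 27.8 and 32.2% in the 4 P38i libraries and by 0 in the other 12, so that its fall came from combo minus P38i alone (interaction -24.5 ± 3.73 points SE, adjusted p = 0.0212). LOC107987433 on chromosome 5 was covered by 22.6 to 36.2% in P38i libraries and by up to 31.6% in EPZ libraries, but by 0 in all control and combo libraries (interaction -48.0 ± 6.98 points SE, adjusted p = 0.0212). Both genes reached the 5% mean needed for testing only through the treatments where they were covered. The same libraries make the interaction, and at ZNF853 also the fall, so these calls were partly set by the filter.

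The largest falls of at least 10 points in both arms included CGA, RGS13, GPR65, CXCL9, CD69 and TAAR9. Within the arms CGA, RGS13 and TAAR9 passed the test in both, GPR65 and CD69 in EPZ minus control but not in combo minus P38i (adjusted p = 0.153 and 0.148), and CXCL9 in neither (adjusted p = 0.0506 and 0.0871). CGA (chromosome 6, 87085498 to 87095106) encodes the alpha subunit shared by the pituitary and placental glycoprotein hormones. Its lowest, median and highest coverage was 67.1, 82.2 and 100% in the 8 libraries without the inhibitor and 9.60, 30.1 and 50.7% in the 8 with it, so the sides did not overlap (fall of 53.9 ± 6.26 points SE, adjusted p = 0.000464). RGS13 (chromosome 1, 192636147 to 192660311), a regulator of G protein signalling known from B cells and mast cells, was covered by 62.2, 84.2 and 96.6% without and 0, 30.9 and 60.9% with the inhibitor, again without overlap (fall of 49.5 ± 7.63 points SE, adjusted p = 0.00194). GPR65 (chromosome 14, 88005135 to 88014811), a proton-sensing receptor of leukocytes, gave 44.1, 76.2 and 94.5% and 6.21, 21.9 and 56.6%, where combo replicate 1 reached into the range of the side without (fall of 47.2 ± 7.49 points SE, adjusted p = 0.00214).

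CXCL9 and CD69 belong to inflamed tissue and activated lymphocytes. CXCL9 (chromosome 4, 76001275 to 76007509), an interferon-induced chemokine, was covered by 21.4, 67.7 and 100% without the inhibitor and 0, 0 and 28.5% with it, and 6 of the 8 libraries with the inhibitor had no island there (fall of 55.2 ± 10.5 points SE, adjusted p = 0.00474). The low end of the side without was control replicate 4, which overlapped with the 2 combo libraries above 0. CD69 (chromosome 12, 9752486 to 9760901), an early activation antigen of the C-type lectin family, gave 19.4, 66.3 and 87.96% and 0, 7.45 and 46.2%, with 4 libraries of the inhibitor side at 0 (fall of 48.6 ± 9.37 points SE, adjusted p = 0.00482). TAAR9 (chromosome 6, 132538277 to 132539336), a trace amine receptor, had the largest fall: 23.7, 92.9 and 100% without and 0, 0 and 49.9% with the inhibitor, with 7 libraries at 0 (fall of 76.9 ± 10.7 points SE, adjusted p = 0.00135). With lists of one common length, TAAR9, CXCL9, CD69 and GPR65 kept their direction but not the call, while CGA and RGS13 kept both.

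**Figure D2:**
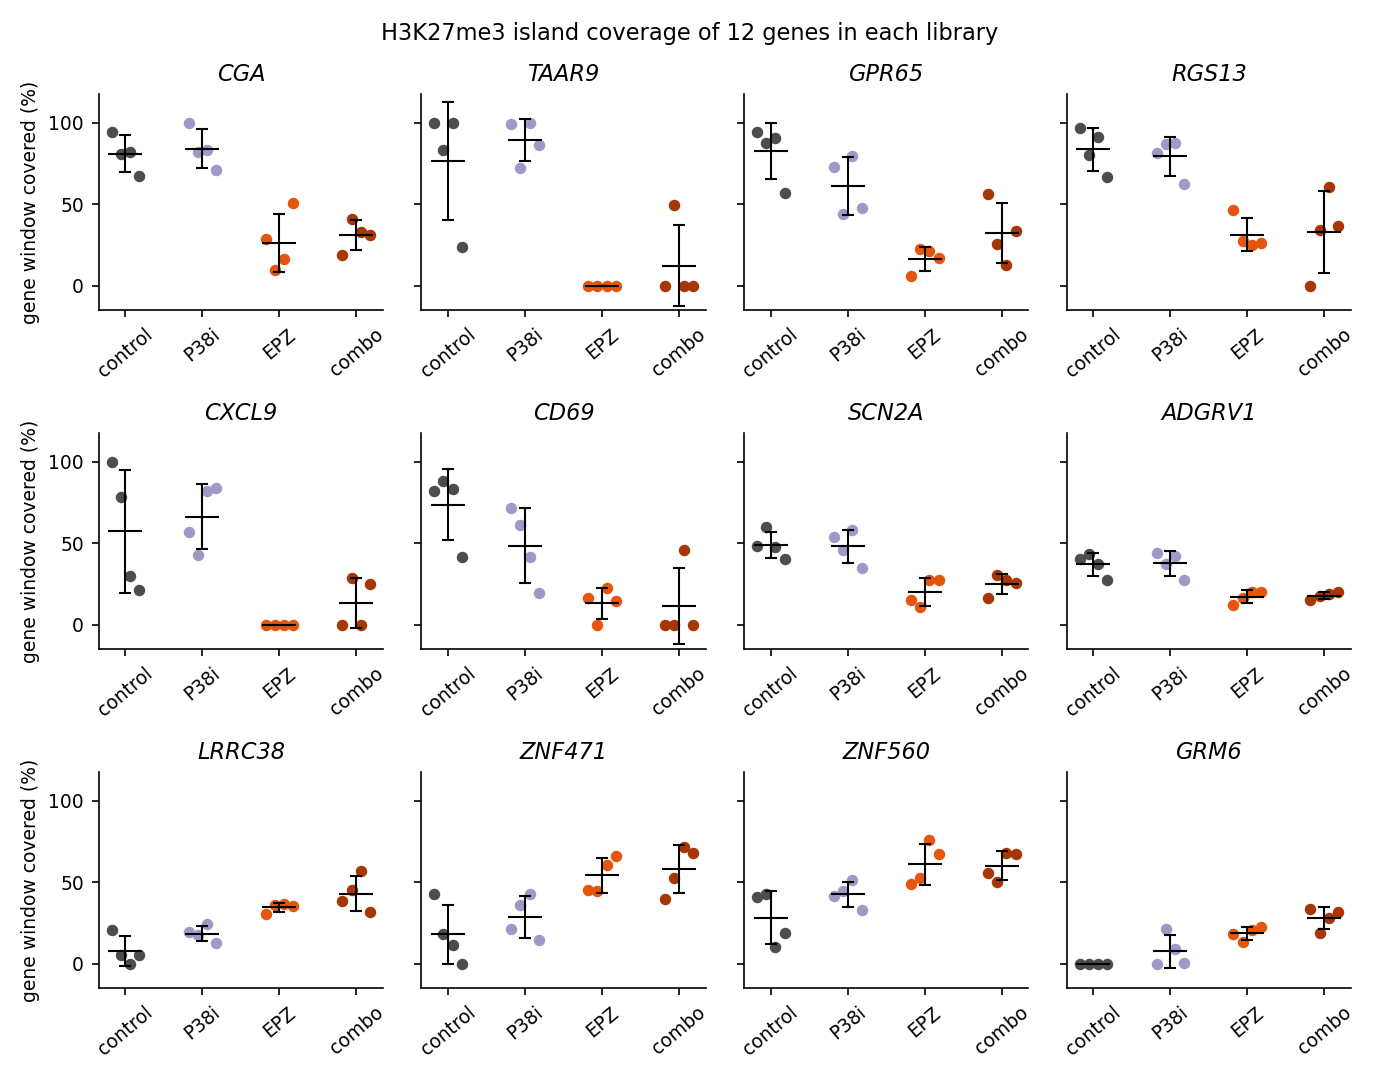
Percent of the gene window covered by H3K27me3 islands for 12 genes, 8 that fell and 4 that rose; each point is 1 library, and the horizontal mark and bars are the mean and SD of 4 libraries. In CGA and RGS13 no library with the inhibitor (EPZ, combo) reaches any library without it (control, P38i), and in LRRC38 the order is the opposite.

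The sequence just before the gene start shows which of these changes included a promoter. The 250 bases upstream of the start (RefSeq, GRCh38.p14) were found for 61 of 76 genes followed in every setting, and a library was counted as covering them when islands took at least 50%. At 20 of the 61 genes no library covered them, although the gene window changed. They were covered in more libraries without the inhibitor at 28 genes, in more libraries with it at 9, and in equal numbers above 0 at 4. Below are 2 promoters covered in fewer libraries with the inhibitor, 2 covered in more and 1 at a gene whose rise lay elsewhere. Each is given 5′ to 3′ on the strand of the gene with CG dinucleotides in capitals, since CG-rich promoters are the classical docking regions of Polycomb complexes:
CGA, chr6:87095107-87095356 (minus strand): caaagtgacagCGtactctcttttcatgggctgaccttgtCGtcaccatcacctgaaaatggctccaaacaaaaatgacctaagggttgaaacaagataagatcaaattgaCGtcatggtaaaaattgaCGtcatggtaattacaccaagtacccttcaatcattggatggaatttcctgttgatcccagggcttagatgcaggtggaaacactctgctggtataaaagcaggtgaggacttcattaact
GPR65, chr14:88004885-88005134 (plus strand): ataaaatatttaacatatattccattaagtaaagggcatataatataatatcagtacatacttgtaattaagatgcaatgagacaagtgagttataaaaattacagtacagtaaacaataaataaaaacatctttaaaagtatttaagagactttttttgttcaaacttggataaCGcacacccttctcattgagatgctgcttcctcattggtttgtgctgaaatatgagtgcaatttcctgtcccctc
ZNF595, chr4:53071-53320 (plus strand): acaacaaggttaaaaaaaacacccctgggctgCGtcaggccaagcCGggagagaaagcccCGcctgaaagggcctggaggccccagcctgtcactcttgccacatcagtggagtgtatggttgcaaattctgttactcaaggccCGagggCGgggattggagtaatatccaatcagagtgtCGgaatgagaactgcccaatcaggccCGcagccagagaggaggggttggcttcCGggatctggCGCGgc
OTX2, chr14:56810480-56810729 (minus strand): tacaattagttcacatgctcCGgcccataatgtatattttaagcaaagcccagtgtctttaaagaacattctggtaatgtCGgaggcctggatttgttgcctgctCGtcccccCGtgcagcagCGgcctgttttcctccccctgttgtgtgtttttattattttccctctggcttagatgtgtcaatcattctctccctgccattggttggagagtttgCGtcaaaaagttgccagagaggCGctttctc
LRRC38, chr1:13514004-13514253 (minus strand): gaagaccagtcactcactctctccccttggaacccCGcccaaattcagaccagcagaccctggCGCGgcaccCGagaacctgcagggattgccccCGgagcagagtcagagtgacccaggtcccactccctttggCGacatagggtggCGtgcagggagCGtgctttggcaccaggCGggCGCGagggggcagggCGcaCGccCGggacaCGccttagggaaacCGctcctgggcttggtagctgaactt
The CGA promoter was covered in 7 of 8 libraries without the inhibitor and 2 of 8 with it, and that of GPR65 in 7 and 0. The ZNF595 promoter was covered in 1 library without and 6 with the inhibitor, and that of OTX2 in 4 and 8. No library covered the LRRC38 promoter. The letters CG, which read the same on both strands and do not overlap with themselves, occur 4 times before CGA, once before GPR65, 10 times before ZNF595, 7 times before OTX2 and 16 times before LRRC38. Of 15812 promoter sequences of this length 96.9% hold at least 1 CG, with a median of 17.

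Sodium channel genes of the SCN family fell side by side on chromosome 2. Of 21 tested sodium and calcium channel genes 5 fell (23.8%, against 15.6% of all tested genes) and none rose. The 5 were SCN1A, SCN2A, SCN3A, SCN7A and SCN9A. SCN2A (chromosome 2, 165239414 to 165392304) was covered by 35.02, 48.2 and 59.97% without and 11.2, 26.5 and 30.3% with the inhibitor, with no overlap (fall of 26.04 ± 4.28 points SE, adjusted p = 0.00243). SCN1A gave 22.2, 38.4 and 50.4% and 9.47, 14.6 and 21.3%, and SCN9A, the channel of pain neurons, 17.2, 27.7 and 39.7% and 4.24, 10.4 and 14.04%, both without overlap (falls of 23.6 and 17.8 points, adjusted p = 0.00378 and 0.00308). SCN3A and SCN7A fell by 28.03 and 23.8 points with overlapping sides, and neither passed after adjustment for covered length. The median of all 21 was -6.23 points, near the -4.84 of all genes, and it turned to +0.39 with lists of one length.

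Other channels and neuronal genes stood close to the background. Potassium channels fell at 7 of 51 and rose at 1, and ligand-gated channels fell at 6 of 47, or 13.7% and 12.8% against 15.6% of all genes. KCND2, a channel subunit of the A-type current, was covered by 72.6, 83.8 and 88.6% without and 51.7, 56.1 and 71.9% with the inhibitor, with no overlap (fall of 20.8 ± 3.98 points SE, adjusted p = 0.00474). Among 49 synaptic and neuronal adhesion genes 10 fell, with a median of -4.20 points. Of 19 genes on a neuronal list 4 fell. Its clearest member, STMN2, a microtubule regulator of growing axons, gave 37.3, 45.4 and 56.9% and 13.3, 21.1 and 34.98% without overlap (fall of 24.8 ± 4.13 points SE, adjusted p = 0.00262). The gene of the neuropeptide VIP was covered by 44.4, 69.9 and 94.3% and 0, 36.4 and 51.6% (fall of 38.3 ± 7.57 points SE, adjusted p = 0.00551).

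On a list of receptors coupled to G proteins, 15 of 78 tested genes fell (19.2%, against 15.6% of all tested genes) and 1, GRM6, rose. The olfactory, taste, trace amine and vomeronasal receptors below were counted apart. ADGRV1 (chromosome 5, 90558797 to 91164437), a very large adhesion receptor of the inner ear and retina, was covered by 27.4, 38.8 and 44.00% without and 12.2, 18.4 and 20.4% with the inhibitor, with no overlap (fall of 19.7 ± 3.10 points SE, adjusted p = 0.00209). Of 207 tested olfactory receptor genes 20 fell and 2 rose, or 9.66% lower, below the share of all genes; 96 of the 392 annotated members lay above 95% coverage and were not tested. OR52N5 gave 52.5, 80.3 and 100% and 0, 33.04 and 49.2% without overlap (fall of 50.7 ± 7.35 points SE, adjusted p = 0.00159), and OR6C76 21.00, 73.2 and 100% and 0, 15.9 and 48.7% with overlap (fall of 52.04 ± 9.59 points SE, adjusted p = 0.00408). OR5K3 fell by 54.8 ± 16.1 points, but its call was lost when any of 11 single libraries was left out, and after adjustment for covered length. Trace amine, taste and vomeronasal receptors had a median of -15.6 points (-5.66 and -3.05 under the 2 scalings); 3 of 15 fell, against 15.6% of all genes, and none of 13 with lists of one length.

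Enzymes of detoxification were among the families with the largest share lowered. Of 18 tested UDP-glucuronosyltransferases, which attach glucuronic acid to bilirubin, steroids and drugs, 13 fell and none rose, with a median of -18.5 points. After adjustment for covered length 5 of the 18 fell (median -12.5 points), and with lists of one length 1 of the 12 that could be tested (median -9.55). Of the 13, 9 are the UGT1A genes of chromosome 2, whose windows overlap and end at the same base, so they are not separate observations. UGT1A1 (chromosome 2, 233760270 to 233773300) has the shortest window of these and was covered by 33.3, 72.7 and 98.9% without and 0, 9.98 and 41.04% with the inhibitor (fall of 56.04 ± 9.04 points SE, adjusted p = 0.00225). UGT2B7, from the separate cluster on chromosome 4, gave 0, 12.01 and 16.5% and 0, 0 and 2.70%, with 6 libraries of the inhibitor side at 0 (fall of 9.42 ± 2.01 points SE, adjusted p = 0.00752). It reached the 5% mean needed for testing only through the libraries without the inhibitor, so this call was partly set by the filter. Alcohol and aldehyde dehydrogenases fell at 3 of 9 (33.3%, against 15.6% of all tested genes), and at 1 of 8 with lists of one length. ALDH1A1 (chromosome 9, 72900671 to 72953053), which makes retinoic acid, gave 37.3, 59.5 and 82.7% and 7.93, 17.6 and 26.9% without overlap (fall of 42.02 ± 6.47 points SE, adjusted p = 0.00194), and ADH7, the stomach form of alcohol dehydrogenase, 25.6, 32.8 and 38.5% and 0, 8.55 and 19.9%, also without overlap (fall of 22.99 ± 4.07 points SE, adjusted p = 0.00346). Cytochrome P450 genes differed from these enzymes in their values: 1 of 36 fell, with a median of -3.64 points that became +1.22 and +1.14 under the 2 scalings. The difference between the families was not tested.

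Groups of blood, liver and immune genes lay on both sides of the 15.6% of all tested genes that fell. C-type lectins and killer-cell receptors fell at 6 of 28, with a median of -14.5 points (-7.18 and -8.12 under the scalings). After adjustment for covered length 3 of 28 fell, and with lists of one length none of 27. CLEC7A, the beta-glucan receptor of phagocytes, was covered by 38.5, 63.3 and 87.03% without and 0, 17.3 and 52.9% with the inhibitor (fall of 42.8 ± 8.54 points SE, adjusted p = 0.00563), and OLR1, the scavenger receptor for oxidised LDL, by 0, 30.04 and 41.8% and 0, 0 and 19.2%, with 7 libraries at 0 (fall of 22.2 ± 4.25 points SE, adjusted p = 0.00474). OLR1 reached the 5% mean needed for testing only through the libraries without the inhibitor, so its call was partly set by the filter. A list of complement and coagulation genes, which also holds the albumin family genes ALB and AFP, fell at 7 of 29. Its median was -11.3 points (-7.65 and -7.55). After adjustment for covered length 2 of 29 fell, and with lists of one length 1 of 22. The 7 were CFI, CFHR5, C4BPA, C9, C1QB, ALB and AFP. Factor I, the protease that inactivates C3b and C4b, is encoded by CFI, which gave 33.4, 41.3 and 59.5% and 9.47, 13.4 and 31.8% without overlap (fall of 26.8 ± 4.16 points SE, adjusted p = 0.00194). Albumin (ALB), the main plasma protein made by the liver, gave 22.4, 53.5 and 91.9% and 13.5, 23.8 and 34.2% (fall of 31.98 ± 7.99 points SE, adjusted p = 0.0157) and did not pass after adjustment for covered length. On a haematopoietic list 4 of 20 fell, as did 4 of 20 after adjustment for covered length and none of 17 with lists of one length. Among the 4 were LMO2, a bridging factor of blood stem cells, at 55.9, 68.4 and 81.3% and 40.3, 43.4 and 59.02% (fall of 22.5 ± 3.67 points SE, adjusted p = 0.00241), and CD3E, a chain of the T cell receptor complex, at 44.8, 61.9 and 77.7% and 4.69, 29.6 and 56.99% (fall of 32.7 ± 6.41 points SE, adjusted p = 0.00531). Chemokines and their receptors fell at 2 of 31, interleukins, interferons and their receptors at 1 of 23, immunoglobulin-like and Fc receptors at 1 of 44 and the MS4A genes at none of 15.

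Developmental regulators, the classical targets of Polycomb, fell about as often as other genes. Among SOX, PAX, FOX, TBX, GATA and POU factors 8 of 41 fell (19.5%, against 15.6% of all tested genes). Their median was -5.01 points and became +0.50 with lists of one length. FOXB1, a forkhead factor of the developing brain, was covered by 0, 23.2 and 24.5% in libraries without the inhibitor and by 0 in all 8 with it (fall of 18.9 ± 2.59 points SE, adjusted p = 0.00135). It reached the 5% mean needed for testing only through the libraries without the inhibitor, so this call was partly set by the filter. With both treatments of the inhibitor side at 0, the shared spread may also be too small. FOXN4, a forkhead factor of the retina, gave 11.6, 48.05 and 76.3% and 0, 7.44 and 20.9% (fall of 35.4 ± 5.82 points SE, adjusted p = 0.00250). Homeobox genes outside the HOX clusters fell at 6 of 30 and rose at 1, and of the 39 HOX genes 33 lay below 5% and 1 of the 6 tested fell. BMPR1B, a receptor for bone morphogenetic proteins that is also on a list of genes known as EZH2-silenced in cancer, gave 21.8, 46.3 and 50.6% and 13.7, 19.7 and 22.9% (fall of 21.5 ± 4.65 points SE, adjusted p = 0.00830). Of that list 3 of 9 tested members fell (STMN2, CXCL9 and BMPR1B), with a median of -14.2 points (-11.4 and -9.91 under the scalings). After adjustment for covered length 3 of 9 fell, and with lists of one length 1 of 8.

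Solute carriers fell at 20 of 110, or 18.2%, near the 15.6% of all tested genes, and at 1 of 93 with lists of one length. Matrix metalloproteinases and ADAM proteases fell at 4 of 17, and at 1 of 15 with lists of one length. SLCO1C1, a thyroid hormone transporter of brain vessels, was covered by 16.2, 23.6 and 55.5% without and 0, 1.09 and 13.9% with the inhibitor, without overlap (fall of 28.3 ± 4.86 points SE, adjusted p = 0.00307). The kidney salt transporter gene SLC12A1 stayed highly covered, at 82.9, 90.1 and 97.7% and 69.7, 75.98 and 83.1% (fall of 14.3 ± 2.53 points SE, adjusted p = 0.00346). On a list of germline and meiosis genes 5 of 15 fell (33.3%), and 1 of 13 with lists of one length. Their median was -4.48 points, near the -4.84 of all tested genes, and became +1.07 with lists of one length. FIGLA (chromosome 2, 70777310 to 70790643), a transcription factor of the oocyte, gave 40.3, 58.2 and 80.4% and 10.9, 22.2 and 32.4% without overlap (fall of 39.4 ± 6.12 points SE, adjusted p = 0.00194). No member fell or rose among 25 tested genes of the cornified envelope and 29 of the PRAME and cancer-testis families. Cell cycle genes (30), housekeeping genes (18) and Polycomb subunits (28) all lay below 5% coverage and were not tested.

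**Figure D3:**
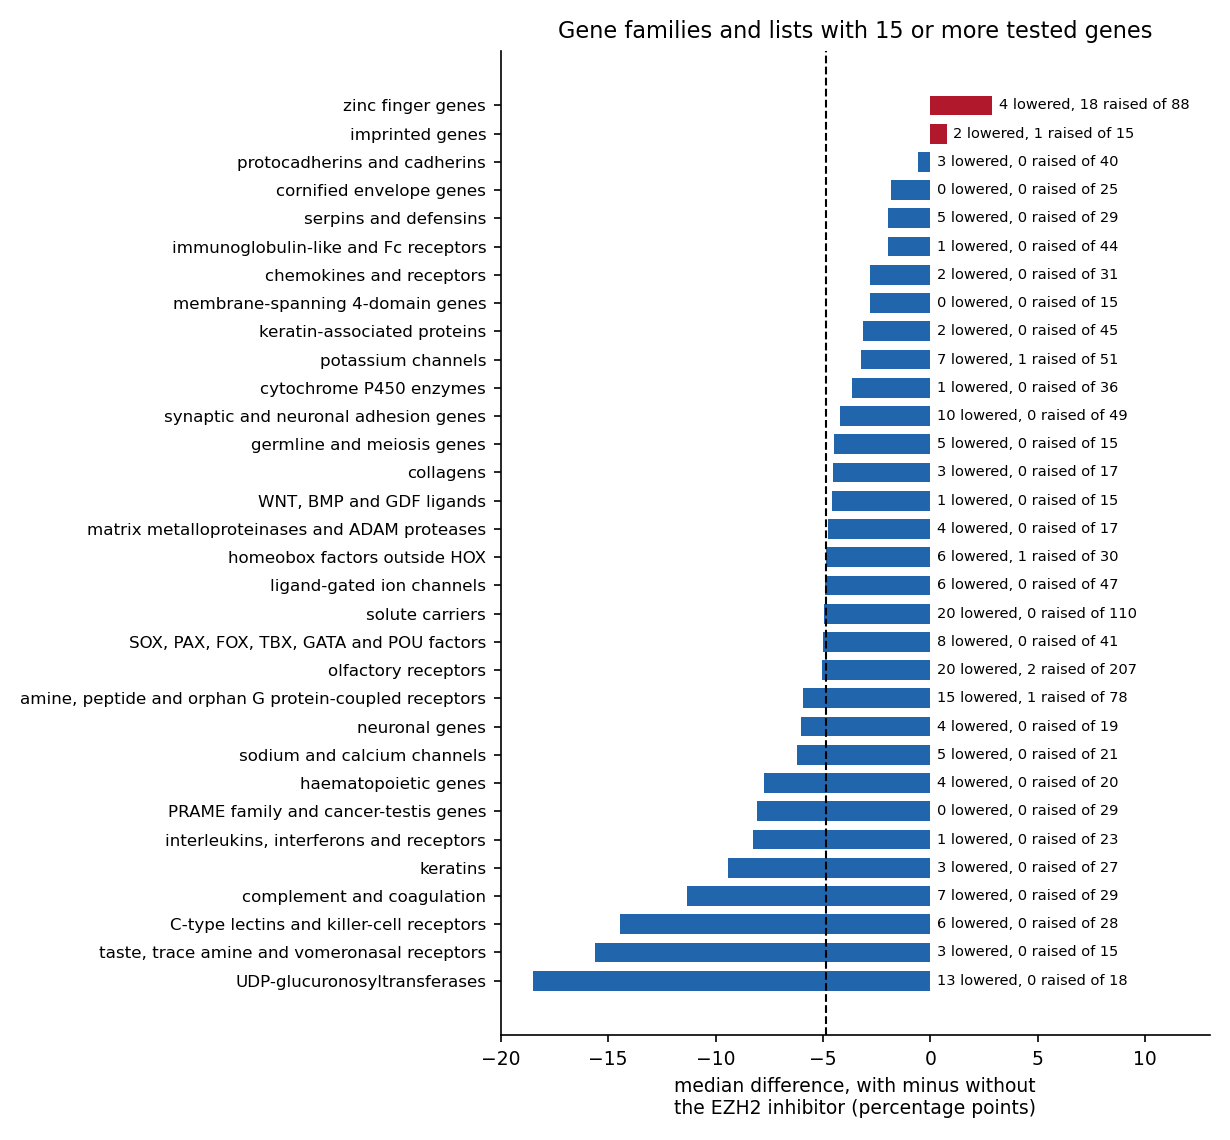
Median difference in covered percent, with minus without the EZH2 inhibitor, for the gene families and lists with at least 15 tested genes; the dashed line is the median of all tested genes and the text beside each bar gives the members that passed the test. Zinc finger genes have the most raised members (18 of 88) and UDP-glucuronosyltransferases the largest share lowered (13 of 18, which became 5 of 18 after adjustment for covered length and 1 of 12 with lists of one length).

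Zinc finger genes held the most raised members of any family examined. These encode DNA-binding proteins, most of which carry a KRAB domain that recruits heterochromatin proteins to transposable elements. Of 560 annotated members 467 lay below 5% coverage, 88 were tested, 18 rose and 4 fell, or 20.5% raised where 0.877% of all tested genes rose, and 37.5% of the 88 lay lower with the inhibitor. Thus 18 of the 36 raised genes belong to this family. Their median difference was +2.87 points, and +6.92 and +11.2 under the 2 scalings, where 20 and 14 rose. On chromosome 19, where many of them cluster, 10 of 41 rose and none fell, and elsewhere 8 of 47 rose and 4 fell. The 216 tested genes of chromosome 19 outside the family rose at 2 and fell at 2, with a median of -1.54 points that turned to +2.22 and +5.67 under the 2 scalings, where 12 and 7 rose. The difference between the family and these genes was not tested. Zinc finger genes are similar in sequence, and how reads with several matches were placed is not given in the sources used here.

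ZNF471 (chromosome 19, 56507855 to 56530212) was covered by 0, 19.9 and 43.1% without the inhibitor and 40.1, 56.7 and 71.8% with it, and the 2 highest libraries of the side without reached just into the range of the other (rise of 32.7 ± 6.86 points SE, adjusted p = 0.00718). Its neighbours ZNF582 and ZNF667 gave 0, 22.8 and 36.7% and 12.8, 36.95 and 45.6% without and 31.7, 55.8 and 70.96% and 43.4, 55.5 and 78.5% with the inhibitor, rises of 28.7 and 25.02 points (adjusted p = 0.00970 and 0.0123). ZNF560, also on chromosome 19, gave 10.3, 41.5 and 51.6% and 48.9, 61.5 and 75.96% (rise of 25.1 ± 5.77 points SE, adjusted p = 0.0107). On chromosome 4, ZNF595 was at 0 in 6 of 8 libraries without and in 1 of 8 with the inhibitor, and where it was covered its value was close to 45.1% in most libraries (rise of 31.9 ± 7.18 points SE, adjusted p = 0.00970). ZIM2, an imprinted zinc finger gene, gave 0, 12.8 and 25.2% and 16.6, 27.4 and 47.5% (rise of 18.4 ± 4.72 points SE, adjusted p = 0.0183).

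The raised genes outside the family had varied roles. LRRC38 (chromosome 1, 13474973 to 13514003), an auxiliary subunit of calcium-activated potassium channels, was covered by 0, 15.2 and 24.4% without and 30.9, 36.6 and 56.8% with the inhibitor (rise of 25.7 ± 3.86 points SE, adjusted p = 0.00194). It was the only gene whose 8 libraries with the inhibitor all lay above the 8 without. OTX2, a homeobox factor of the forebrain and eye, was already covered by 57.6, 64.1 and 84.6% and rose to 75.6, 80.8 and 92.3% (rise of 14.7 ± 3.57 points SE, adjusted p = 0.0139); on the gene span with no flank it did not pass the test. GRM6, the glutamate receptor of retinal bipolar cells, was at 0 in 5 libraries without the inhibitor and at 13.5, 21.8 and 33.6% in those with it (rise of 19.5 ± 3.14 points SE, adjusted p = 0.00225). The rises of NRSN1 and OR5D18 (32.9 ± 10.5 and 38.8 ± 12.4 points SE) lost the call when any of 14 and 13 single libraries, respectively, was left out.

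Lowered genes were longer than tested genes as a whole, with a median of 68.4 kb against 33.7 kb, and raised genes had 31.3 kb. The share lowered was 6.02% under 5 kb, 10.3% from 5 to 15 kb, 13.3% from 15 to 50 kb, 24.4% from 50 to 150 kb and 21.0% at 150 kb or more. The size of the difference did not follow this order: the medians were -3.71, -5.44, -4.85, -5.61 and -4.12 points. The median standard error fell from 7.61 points in the shortest class to 3.01 in the longest, and falls of at least 15 points, called or not, were more frequent in the shortest class (20.1%) than in the longest (8.34%).

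Examples at both ends were PDE4D, a cAMP phosphodiesterase gene of 1553 kb, which went from 51.5, 61.2 and 63.8% to 44.6, 47.95 and 54.1% (fall of 11.1 ± 2.92 points SE, adjusted p = 0.0200), and OR6C76, of 0.939 kb, whose window is mostly flank. The longest raised gene was MDGA2 (836 kb), a regulator of synapse formation, at 5.11, 10.2 and 15.04% without and 13.8, 17.4 and 27.9% with the inhibitor (rise of 9.64 ± 2.59 points SE, adjusted p = 0.0221). SGCZ and CAST, also among the longest lowered genes, fell by 19.6 and 3.67 points and did not pass after adjustment for covered length, and the calls were lost when any of 7 and 13 single libraries, respectively, was left out.

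Genes that started at intermediate coverage were lowered most often. Grouped by their mean in the 8 libraries without the inhibitor, 1.58% of genes fell under 10% coverage, 16.4% from 10 to 25%, 21.6% from 25 to 50%, 20.9% from 50 to 75% and 10.4% at 75% or more. Rises were most frequent in the lowest class, at 4.22%, and 16 of the 36 raised genes came from it. Testing needed a mean of 5% over all 16 libraries, so a gene below 5% without the inhibitor entered only when higher with it. The share of rises in this class was thus partly set by the filter. The libraries that set these classes also enter the difference, so the classes were set again from libraries outside it. For EPZ minus control, with classes from the P38i libraries, the median difference was -1.35 points under 10%, -3.63, -6.04 and -7.30 in the next 3 classes, -5.41 from 75 to 90% and -2.81 at 90% or more. For combo minus P38i, with classes from the control libraries, it was -2.35, -5.63, -7.41, -7.02, -3.92 and -3.12 points. Both arms thus had their largest median between 25 and 75% coverage. Within genes of 50 kb or more the share lowered was 19.5% below 25% coverage, 29.5% from 25 to 75% and 13.4% above, and within genes under 15 kb it was 5.01, 11.3 and 7.02%.

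Chromosomes differed widely in how many of their genes were called. On chromosome 4, 82 of 207 tested genes fell (39.6%), on chromosomes 2 and 12 25.8%, and on chromosome 19 2 of 257 (0.778%), where 12 rose (4.67%). The median difference was -11.5 points on chromosome 4, -9.77 on chromosome 12 and -0.305 on chromosome 19. After adjustment for covered length 19.8% of the genes of chromosome 4 fell and none of chromosome 19, and the median of chromosome 19 was +2.99 points.

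**Figure D4:**
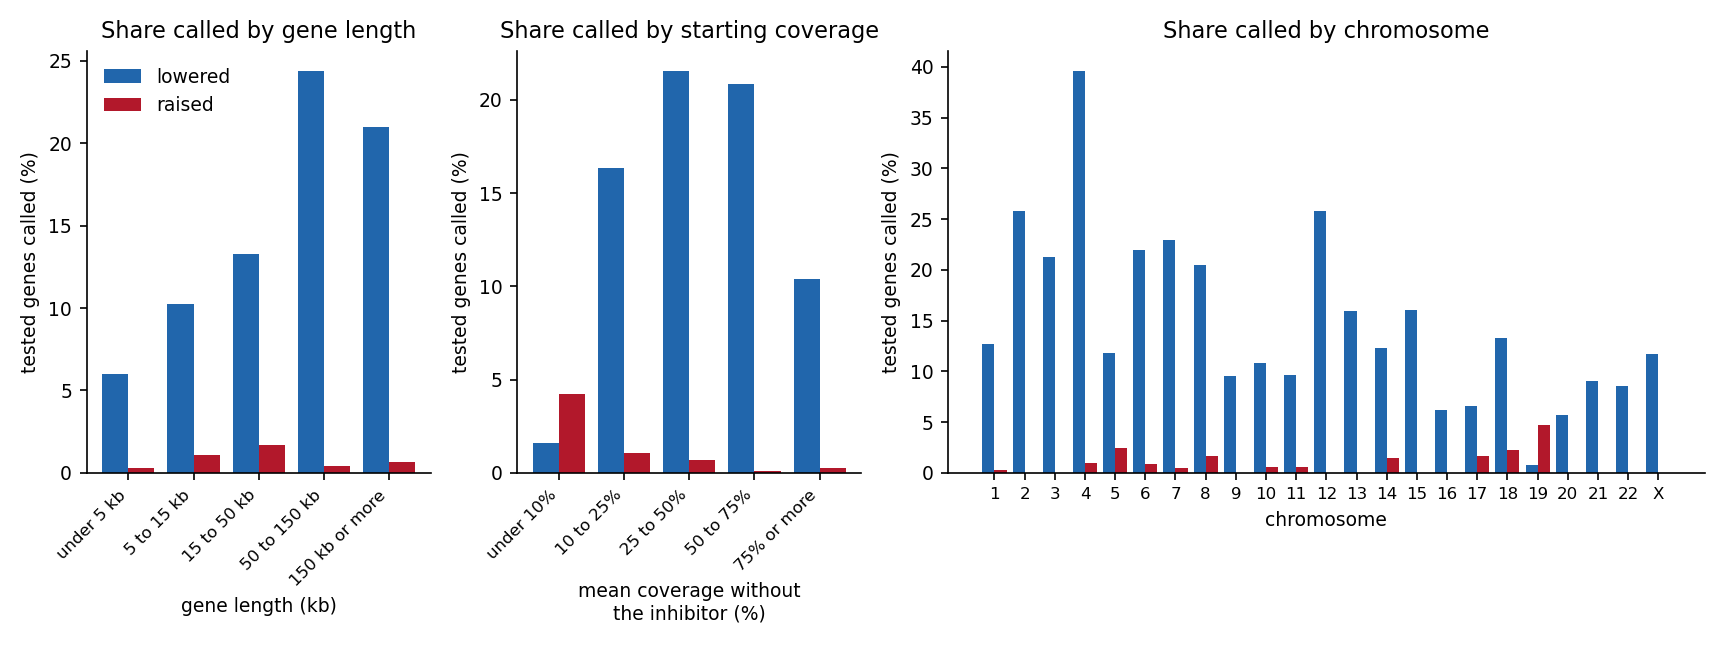
Percent of tested genes that were lowered or raised, by gene length in kb, by mean coverage in the 8 libraries without the inhibitor, and by chromosome. The share lowered is highest from 50 to 150 kb, at intermediate coverage and on chromosome 4, and chromosome 19 has more raised than lowered genes.

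Neighbouring genes moved together. The nearest tested gene whose window did not overlap, where one lay within 100 kb, was also lowered for 113 of 341 lowered genes (33.1%, Wilson 95% interval 28.4 to 38.3%), against 13.02% around all tested genes. For raised genes it was also raised in 8 of 25 (32.0%, interval 17.2 to 51.6%), against 1.01%. No lowered gene had a raised nearest neighbour and no raised gene a lowered one. These intervals cover counting error only, and an island can span several genes. Of the 642 lowered genes 336 (52.3%) lay in 116 runs of adjacent tested genes called the same way, 51 of them of 3 or more genes, and 10 of the 36 raised genes lay in 3 runs. Among all tested genes 15.6% were lowered and 0.877% raised, and the share in runs under random placement was not computed. Runs skip untested genes, with gaps of up to 1654 kb in the run of 10 and 2675 kb in the run of 8 described below. The 9 UGT1A genes, whose windows overlap, also count as a run.

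The longest run, of 10 genes, lay on chromosome 2 from 161624416 to 166494249 and held SLC4A10, GCA, KCNH7, GRB14, CSRNP3 and the 5 sodium channel genes, with a median of -17.1 points. KCNH7, a potassium channel of the ether-a-go-go group, was covered by 15.2, 28.3 and 41.7% without and 6.61, 11.8 and 16.6% with the inhibitor (fall of 16.4 ± 3.29 points SE, adjusted p = 0.00563). A run of 8 on chromosome 7 (87503017 to 93574724) went from ABCB1, the multidrug efflux pump, to CALCR, the calcitonin receptor. ABCB1 gave 71.7, 85.6 and 89.5% and 53.9, 60.1 and 78.9% (fall of 20.7 ± 4.34 points SE, adjusted p = 0.00711), and CALCR 10.95, 21.7 and 42.1% and 0, 6.70 and 15.2% (fall of 15.2 points), which did not pass after adjustment for covered length. On chromosome 4 a run of 6 (67558727 to 68497604) held 5 genes of the TMPRSS11 airway serine protease family, of which TMPRSS11B gave 24.1, 60.8 and 84.2% and 0, 19.6 and 33.5% (fall of 39.2 ± 7.63 points SE, adjusted p = 0.00509).

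The longest raised run was on chromosome 5, from 178691534 to 179035064, and held MSANTD5, ZFP2, ZNF454, GRM6 and ZNF879, with a median of +17.3 points. MSANTD5 was at 0 in 7 of 8 libraries without the inhibitor and at 8.44, 29.4 and 59.9% with it (rise of 28.02 ± 5.60 points SE, adjusted p = 0.00563). The remaining library without it, P38i replicate 1, was at 9.39%. MSANTD5 thus reached the 5% mean needed for testing only through the side with the inhibitor, and its call was partly set by the filter. The same holds for any gene of this run with a mean below 5% without the inhibitor. ZFP2 was at 0 in 5 of 8 and reached 10.4, 19.4 and 31.2% (rise of 17.3 ± 3.66 points SE, adjusted p = 0.00752). The GRM6 values given above come from the same run.

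The change extended beyond the genes. In the 50 kb on either side of lowered genes the median coverage was 32.5% without and 21.9% with the inhibitor, and these flanks were lower with it at 93.6% of lowered genes, 11.1% of raised genes and 78.1% of all tested genes. The flanks of raised genes went from 19.3 to 33.1%. Averaged over lowered genes, the difference was -19.1 points in the gene window, -10.5 and -11.1 points in the first 10 kb to the left and right, and -4.80 points in the bin centred 195 kb to the left. For all tested genes the same distances gave -6.16, -4.94, -5.19 and -2.62 points. Around raised genes the difference was +19.02 points in the window, +11.7 and +9.07 in the first 10 kb and +4.25 at the far left. The gene windows chose these genes, so the values at the genes themselves carry no test, and left and right follow the chromosome and not the strand.

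**Figure D5:**
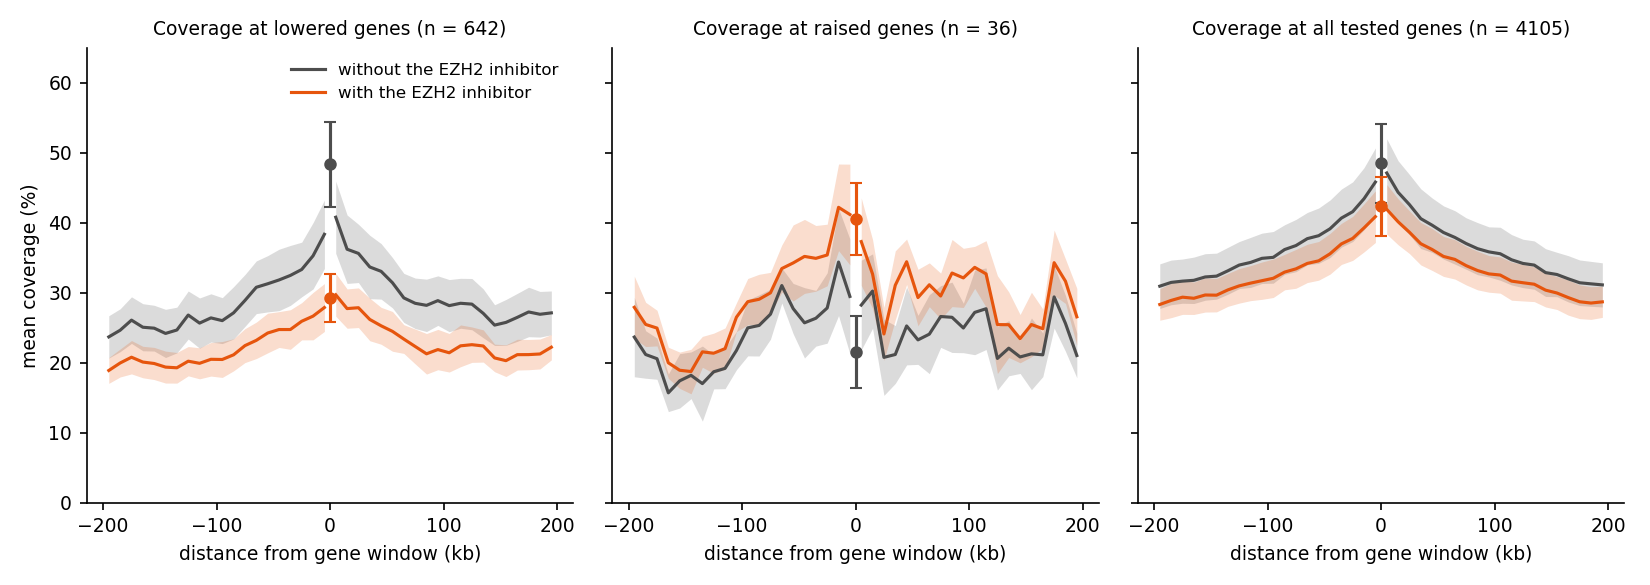
Mean island coverage in bins of 10 kb up to 200 kb on either side of the gene window, left and right along the chromosome, for lowered, raised and all tested genes; lines are means of 8 libraries, shaded bands their SD, and the points at 0 the gene window with its SD. In lowered genes the line with the inhibitor lies below the other over the whole range shown, with the widest gap at the gene.

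Seen library by library, the median coverage of the 642 lowered genes was 46.6 to 53.7% in 6 of the 8 libraries without the inhibitor, 32.8% in control replicate 4 and 35.8% in P38i replicate 4, and 17.5 to 30.0% in the 8 with it. One of these 2 was the lowest library of its side at 50 of the 61 lowered genes followed in every setting. The 642 genes were chosen from the same 16 libraries, so the gap between the sides carries no test. Over all tested genes the sides overlapped, with medians of 34.4 to 57.7% without the inhibitor and 30.7 to 46.8% with it. Control replicate 4 and EPZ replicate 1 had the narrowest islands; without this pair, an alternative chosen after seeing the data, 679 genes fell and 31 rose. The part of island calling and depth in the differences was not tested, since the files hold no read counts.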

How the data were processed

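H3K27me3 ChIPmentation libraries (16, with 4 per treatment) were grouped by treatment label. Per the labels, the deposited files hold only the bounds of islands on build hg38 (no score or other unit). Per the submitters' processing notes, reads were handled with Bowtie2 2.3.4.1, Trim Galore with cutadapt, FastQC, SAMtools 1.2, Picard and bedtools 2.28.0, and SICER called the islands. Its settings, and whether IgG served as background, are not stated in what was used here. All bounds sat on a grid of 200 bp, gaps were at least 800 bp and the narrowest island was 200 bp. Depth per sample is unknown, so no counting interval is given for coverage.

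The percent of each RefSeq gene span (GRCh38.p14, no strand) with 2.5 kb on each side inside islands was computed with Python 3.11.15, numpy 2.4.6 and pandas 2.3.3, checked against bedtools 2.31.1 on 500 genes. Genes with a mean of 5 to 95% entered a limma 3.58.1 fit (trend and robust, R 4.3.3) of 4 treatment means; the contrast was the mean of EPZ and combo minus the mean of control and P38i, with Benjamini-Hochberg adjustment over all tested genes and a threshold of 0.05. EPZ minus control, combo minus P38i and their difference came from the same fit. The fit was tested on simulated data. Where a treatment lies at 0 in all its libraries, the shared spread may be too small and the p too low. A gene with a mean below 5% on one side entered the test only through the other side, so its call was partly set by the filter. Library totals were compared by exact permutation over 12870 arrangements (scipy 1.17.1). Figures used matplotlib 3.10.9.

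The question, the 44 gene families and lists, and the genes followed were chosen with earlier results of these data known. Genes were named by a rule that gave 125: the 15 largest falls and 10 largest rises of at least 10 points in both arms, up to 3 with the smallest p per family, the 5 longest and shortest, and members of the 4 longest runs; 76 of them were followed in every setting. The result of 1 gene is not reported here. The p38 list (1 of 3 tested members lower) and other small families are given by count only. Alternatives changed the flank, the filter, the scale, the scaling by covered length, the island width, the model and the libraries; leaving out the narrowest pair was added after seeing the data. Replicate numbers did not pair libraries (same-number correlations from -0.151 to 0.178). Promoters were described gene by gene only, since fewer than 80% of the raised genes have one in the table.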

Additional observations from a re-analysis of the deposited data

Results flagged for a closer look

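Among 320 sets of 4 libraries of one treatment (4 sets at each of the 76 genes followed in every setting and at each of 4 library measures), 25 (7.81%) held 1 library far from the other 3 by Dixon's test; chance gives about 1 in 20. At genes that fell, single libraries with the inhibitor stood high: combo replicate 2 at TAAR9 (49.9% covered) and OR5K3 (54.2%), EPZ replicate 1 at OR5K3 (29.0%) and RGS13 (46.5%), combo replicate 3 at CD69 (46.2%), combo replicate 1 at OLR1 (19.2%), EPZ replicate 3 at RGS2 (16.7%) and EPZ replicate 2 at SLCO1C1 (13.9%). Combo replicate 3 stood low at ADH1A (19.4%). Control replicate 4 stood low at CD69 (41.7%), BMPR1B (21.8%), SGCZ (32.4%) and KCND2 (73.1%). P38i replicate 3 stood high at UGT1A9 (69.6%), while control replicate 3 at DEFB108B (37.9%) and P38i replicate 4 at FOXB1 (22.01%) also lay apart.

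At genes that rose, control replicate 1 stood high at OR5D18 (47.1%) and ZFP2 (19.4%), P38i replicate 1 at MSANTD5 (9.39%) and P38i replicate 2 at ZNF595 (45.1%). With the inhibitor, combo replicate 3 stood low at MSANTD5 (8.44%), combo replicate 2 at ZNF582 (31.7%), combo replicate 1 at ZNF595 (43.1%) and EPZ replicate 1 at ZNF595 (0%), and EPZ replicate 2 stood high at ZNF667 (78.5%).

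At 2 genes the effect of the EZH2 inhibitor differed with the p38 inhibitor (limma interaction, adjusted p = 0.0212 for each): LOC107987433 (-48.0 points) and ZNF853 (-24.5 points). Both lie at 0 in all libraries of at least 2 treatments, where the shared spread may be too small. They also entered the test only through the treatments where they were covered.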

How the results depend on the processing

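The count of lowered genes stayed within 1.5 times of 642 with other flanks, filters, an arcsine scale, islands of 2 kb or more, 2 sides in place of 4 treatments and limma without trend and robust options. It fell to 260 with covered length as a covariate and to 96 with lists of one length, and ranged from 390 to 893 when single libraries were left out. Raised genes went from 36 to 127 and 72 under the same 2 scalings, and from 26 to 48 over single libraries. Under the replicate block, 554 genes fell, 33 rose and 1 had an interaction; the numbers did not pair the libraries, and 5 of 16 correlated best with their own number. The interaction count was 0 to 4 over single libraries. Over the same omissions, the differences with minus without were -76.0 to -48.4 Mb of covered length (without control replicate 4, -76.0, adjusted p = 0.0435, against 0.0435 to 0.571 over all alternatives of this measure), -38.6 to -22.2 Mb in islands of 50 kb or more, -1.06 to -0.571 kb of median width and 1380 to 5965 islands. Of the 76 genes followed, 71 passed whichever single library was left out, 73 under the block, 59 with the covariate and 26 of the 73 that could be tested with lists of one length; none of the 76 reversed. Of the 561 lowered and 32 raised genes that could be tested with such lists, 14 changed sign there, none of them past the test. Lists of one length keep only wide islands, so genes lying in narrow islands are lost from them. Read depth is unknown, and its part in the falls was not tested.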
